A study of Homo sapiens with 35 samples.

Results

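TXNIP, ARRDC4 and the genes set around them were followed through a total RNA sequencing study of the human embryonic kidney line HEK293T. The members were the rows of the gene count table named TXNIP, ARRDC4, ARRDC2, ARRDC3, MLXIP and MLX, which gave 6 genes of 60665 in the table, and all 6 were among the 19275 genes that passed a filter on low counts. All cells carried 5 nM of a siPOOL (a mixture of small interfering RNAs) for 72 h, either a control pool or a pool against 1 target. Glucose-starved cells spent 24 h in glucose-free medium and were compared with cells that were not starved, called fed here. In a set of libraries numbered 3 and 4 (the second set) there were starved cells with the INTS13 pool (n = 2), the HDGF pool (n = 2) or the control pool (n = 4), and fed cells with the INTS13, HDGF or ZNF655 pool (n = 2 each) or the control pool (n = 4). No label gives the set of the ZNF655 libraries. They were placed here by their numbers 3 and 4, which the ZMYND8 libraries and their controls also have. A set numbered 1 and 2 (the first set) held the TSPYL2, ZEB1, ZNF608, ZNF609 and ZNF687 pools (n = 2 each) and 3 controls, and a last set held the ZMYND8 pool (n = 2) and 2 controls labelled for it. INTS13 is a subunit of Integrator, a complex that cleaves nascent RNA, and the other targets are chromatin-associated or zinc finger proteins. The labels do not say whether replicates were grown separately; the spread behind each p-value is that among libraries and may be technical.

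The 35 libraries held 16.8 to 50.8 M counts (median 25.6 M). Each pool lowered its own target, to between 8.36% of control for HDGF and 56.1% for ZNF608, with INTS13 at 13.9%. Ribosomal protein genes took 5.57 to 16.8% of counts, and 1 control of the first set (1a) stood apart at 13.3%, against 8.92% and 8.94% in controls 1b and 2 of that set. Tests were two-sided edgeR quasi-likelihood tests with Benjamini-Hochberg adjustment over 19275 genes, and a gene was called at an adjusted p under 0.05.

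MondoA, encoded by MLXIP, is a transcription factor that works as a heterodimer with MLX. It enters the nucleus when glucose-6-phosphate is abundant and binds carbohydrate response elements, which hold a pair of E-box-like half-sites. TXNIP is its best known target: the protein binds thioredoxin and restrains glucose uptake by promoting removal of glucose transporters from the cell surface. ARRDC4 encodes an alpha-arrestin related to TXNIP that is also under MondoA control, while ARRDC2 and ARRDC3 encode other alpha-arrestins, adaptors that link membrane proteins to ubiquitin ligases.

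The 250 bases before the start sites of TXNIP and ARRDC4 are shown because these are the members that moved with glucose. They are from RefSeq on GRCh38.p14, read 5′ to 3′ on the strand of the gene, with every match to CACGNG, in which N is any base, or to its reverse complement CNCGTG in capitals.
TXNIP, chr1:145996580-145996829, minus strand: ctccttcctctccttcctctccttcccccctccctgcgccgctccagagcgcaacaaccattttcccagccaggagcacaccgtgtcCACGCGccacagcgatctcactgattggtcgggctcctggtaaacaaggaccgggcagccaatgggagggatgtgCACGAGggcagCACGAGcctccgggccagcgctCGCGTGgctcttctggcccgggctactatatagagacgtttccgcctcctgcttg
ARRDC4, chr15:97960453-97960702, plus strand: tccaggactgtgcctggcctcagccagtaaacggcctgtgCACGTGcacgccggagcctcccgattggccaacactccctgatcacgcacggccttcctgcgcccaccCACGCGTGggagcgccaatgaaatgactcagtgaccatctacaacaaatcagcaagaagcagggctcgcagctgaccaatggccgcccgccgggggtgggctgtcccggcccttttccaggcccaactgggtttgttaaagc
The TXNIP window held a pair of CACGAG half-sites separated by 5 bases, which began 88 and 77 bases upstream of the start. Only 23 of 35116 promoter windows of this length (0.0655%), with several windows for some genes, held 2 CACGNG half-sites on either strand with that spacing, and TXNIP was the only member among them. The ARRDC4 window had a CACGTG that began 210 bases upstream, a motif found in 6.34% of windows, and overlapping CACGCG and CGCGTG matches further down. MLX also had a CACGTG, 50 bases upstream of its RefSeq start. A CACGNG match on either strand was present in 26.7% of all windows, and CCAAT or its reverse complement ATTGG, the box bound by NF-Y, in 32.0%. The TXNIP and ARRDC4 windows shown held CCAAT boxes on both strands. These matches are descriptions of letters and not measured binding.

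TXNIP (ENSG00000265972.6) lies on hg38 chromosome 1 from 145992435 to 145996579, on the minus strand, and ARRDC4 (ENSG00000140450.9) on chromosome 15 from 97960703 to 97973833, on the plus strand. Levels are CPM, the count relative to the TMM-scaled library size. Per kilobase of exon, fed controls of the second set had 5.87 ± 0.69 CPM of TXNIP and 5.19 ± 0.41 of ARRDC4 (SD, n = 4). MLX was higher, at 11.1 ± 0.45 CPM per kilobase, and ARRDC3 (3.95 ± 0.97), MLXIP (3.66 ± 0.28) and ARRDC2 (1.68 ± 0.087) were lower. In the order of group means, TXNIP and ARRDC4 shared their 3 lowest groups, which were the 3 starved groups. Mean TXNIP was 4.55 ± 0.23 CPM in starved HDGF-depleted cells, 5.32 ± 0.81 in starved controls and 7.35 ± 0.34 in starved INTS13-depleted cells (SD, n = 2, 4 and 2). The 12 fed groups ran from 21.2 ± 2.47 CPM in controls of the second set (n = 4) to 40.1 ± 14.7 in controls of the first set (n = 3), and many neighbours in that order overlapped.

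**Figure D1:**
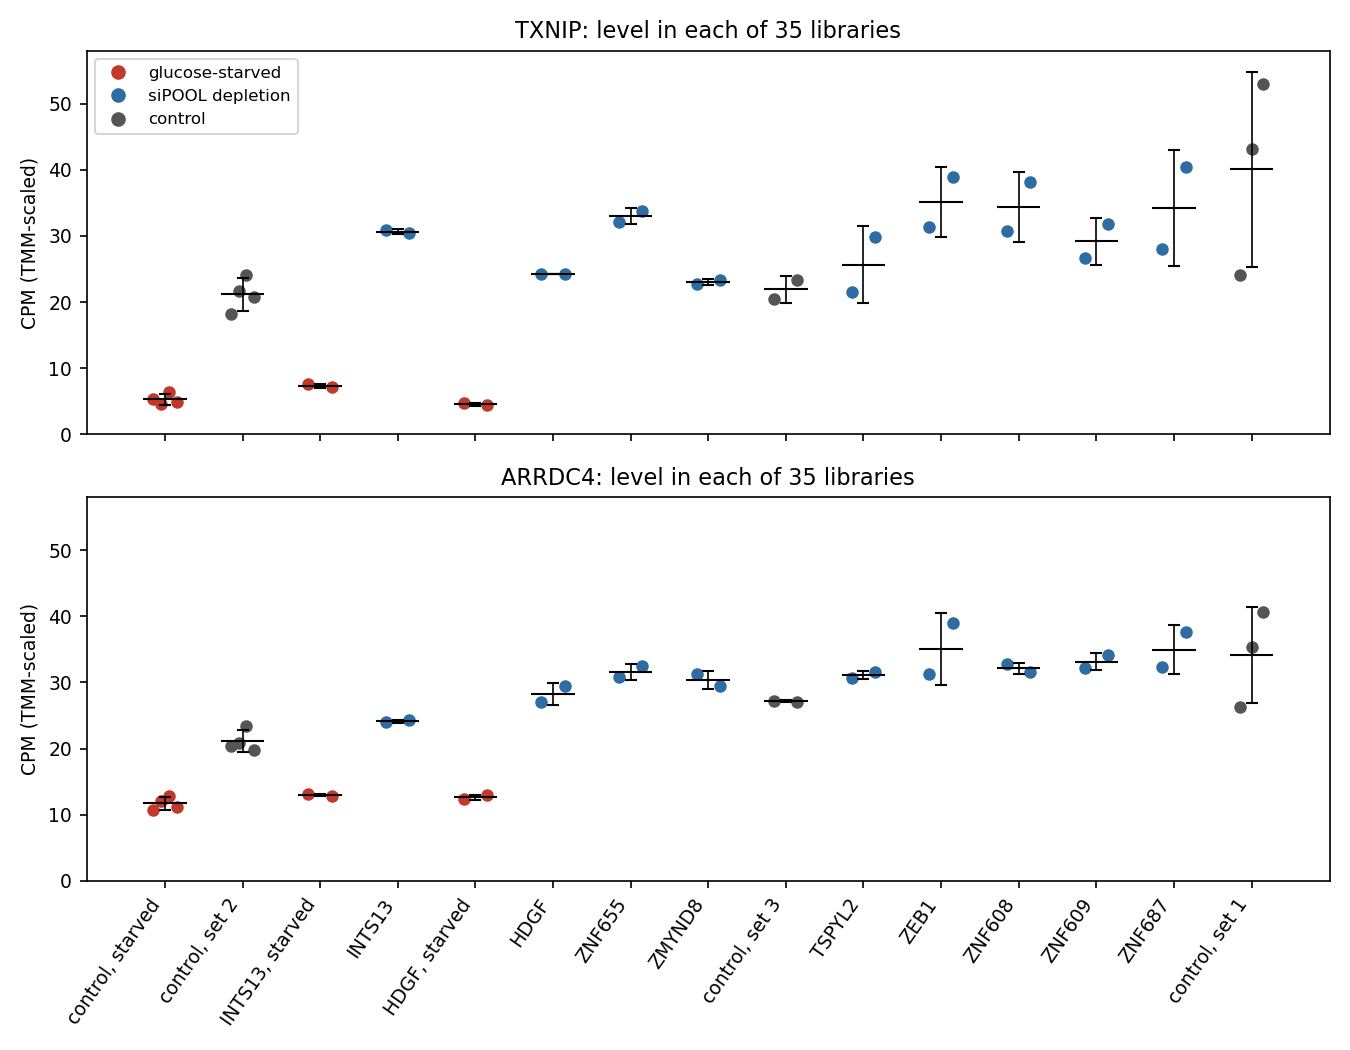
TXNIP (top) and ARRDC4 (bottom) in CPM on a linear axis, in each of 35 libraries by group, with points for libraries, a line for the group mean and bars for the SD. The 8 starved libraries lie below 8 CPM for TXNIP and below 14 CPM for ARRDC4, under every fed library.

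TXNIP fell to 25.3% of its fed level when glucose was withdrawn from control cells. Starved controls had 5.38, 4.58, 6.43 and 4.90 CPM of TXNIP, against 18.2, 21.6, 24.1 and 20.7 CPM in fed controls. These levels rest on 105 to 172 counts per starved library and 514 to 556 counts per fed library. The groups did not overlap, and every starved library was under every fed one. The log2 fold change was −1.99 ± 0.18 (SE; 95% interval −2.36 to −1.61; edgeR adjusted p = 8.95e-08). It was the 19th lowest log2 fold change of 19275 genes.

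The fall of ARRDC4 was smaller. Starved controls had 10.7, 12.0, 12.9 and 11.2 CPM of ARRDC4, against 20.4, 20.8, 23.5 and 19.7 CPM in fed controls, again without overlap. Its log2 fold change was −0.84 ± 0.10 (95% interval −1.05 to −0.63; edgeR adjusted p = 2.87e-06), which left 55.7% of the fed level. Of the 6 members, 2 were called in starved controls, both lower, where 16.8% of all genes were called.

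The other alpha-arrestins and the MondoA and MLX genes were not called on starvation of control cells. ARRDC2 (log2 fold change 0.05, 95% interval −0.11 to 0.22), ARRDC3 (−0.21, −0.54 to 0.13), MLXIP (−0.0031, −0.26 to 0.25) and MLX (0.10, −0.05 to 0.25) had intervals that included 0. MLXIP had 48.3, 45.1, 60.9 and 48.4 CPM in starved controls, against 55.4, 47.2, 48.2 and 52.4 CPM in fed controls. MLX had 50.4, 46.9, 50.5 and 54.4 CPM in starved controls, against 49.2, 48.1, 44.8 and 46.7 CPM in fed controls. For both partners the ranges overlapped.

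The fall was also seen in cells depleted of INTS13 or HDGF. In INTS13-depleted cells TXNIP was at 7.58 and 7.11 CPM when starved and at 30.9 and 30.4 CPM when fed. In HDGF-depleted cells it was at 4.72 and 4.39 CPM when starved and at 24.3 and 24.2 CPM when fed. The log2 fold changes were −2.06 ± 0.25 with INTS13 depleted (edgeR adjusted p = 1.11e-04) and −2.41 ± 0.27 with HDGF depleted (edgeR adjusted p = 1.52e-05). Starved cells of both kinds lay far below their fed counterparts.

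ARRDC4 moved the same way in both depleted backgrounds. It had 13.2 and 12.9 CPM in starved INTS13-depleted cells, against 24.0 and 24.3 CPM in fed ones, a log2 fold change of −0.89 ± 0.14 (edgeR adjusted p = 0.0020). In HDGF-depleted cells it had 12.3 and 12.9 CPM when starved, against 27.0 and 29.4 CPM when fed, a log2 fold change of −1.16 ± 0.14 (edgeR adjusted p = 5.05e-05). TXNIP and ARRDC4 were the 2 members called in each background, with 1.32% of all genes called in INTS13-depleted cells and 3.54% in HDGF-depleted cells. Without starved INTS13 library 4 the ARRDC4 log2 fold change in that background was −0.87 and was no longer called (edgeR adjusted p = 0.0624); the lone starved library was then assumed to vary like the other groups.

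**Figure D2:**
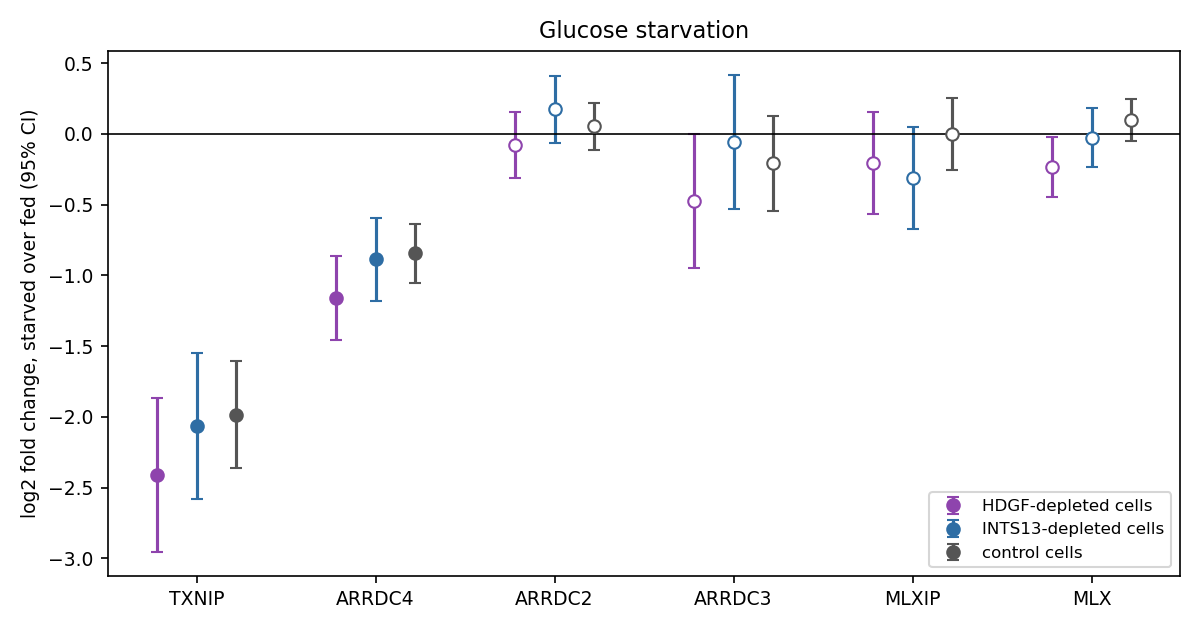
Log2 fold change of the 6 members, starved over fed, with 95% intervals, in HDGF-depleted, INTS13-depleted and control cells; filled points are called. TXNIP lies near −2 and ARRDC4 near −1 in all 3 backgrounds, and the other 4 members have open points.

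Ribosomal protein genes, read as a sign of library composition, also moved with starvation: they took 7.87 to 8.39% of counts in starved controls, against 6.54 to 7.18% in fed controls. In INTS13-depleted cells the share was 7.87 to 8.11% when starved and 6.37 to 6.54% when fed, and in HDGF-depleted cells 6.90 to 7.46% when starved and 6.03 to 6.24% when fed. Its part in the falls was not tested. In these bulk libraries fewer cells and less RNA per cell cannot be told apart.

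Whether depletion changed the size of the starvation response was tested as an interaction, and no member was called. The TXNIP response differed from that of control cells by −0.08 on the log2 scale with INTS13 depleted (95% interval −0.71 to 0.56) and by −0.42 with HDGF depleted (−1.08 to 0.23). For ARRDC4 the differences were −0.04 (−0.40 to 0.32) and −0.32 (−0.68 to 0.04). In all, 0.0156% of genes were called for the INTS13 interaction (3 genes) and 0% for the HDGF interaction, by edgeR. At an unadjusted p under 0.05 there were 0 members for INTS13 and 1 for HDGF, MLX (difference −0.34, edgeR adjusted p = 0.922). DESeq2 called 0 members for HDGF. For INTS13 it gave an adjusted p to MLX alone among the members, and MLX was not called (DESeq2 adjusted p = 0.986). It therefore gave no adjusted p, and so no call either way, for TXNIP or ARRDC4 in the INTS13 interaction.

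Among starved cells, depletion moved no member past the threshold. INTS13-depleted starved cells had a TXNIP log2 fold change of 0.46 ± 0.23 over starved controls (edgeR adjusted p = 0.338), and HDGF-depleted ones −0.23 ± 0.25 (edgeR adjusted p = 0.839). Of the 6 members, 0 were called by edgeR or by DESeq2 in either comparison, where 3.86% of all genes were called for INTS13 and 0.659% for HDGF. With an unadjusted p under 0.05 there were 0 members for INTS13 and 1 for HDGF. In a fit of the second set alone the TXNIP difference in INTS13-depleted starved cells was called (0.46, edgeR adjusted p = 0.0168). That fit called 3047 genes for this comparison, against 744 in the fit of all libraries. Refits that left out a library called the TXNIP difference in 0 of 6.

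In fed cells, ZNF655 depletion raised TXNIP and ARRDC4 together. ZNF655 is a zinc finger protein, and no label names its control, so the fed controls of the second set were used. TXNIP had 32.2 and 33.8 CPM in ZNF655-depleted cells, against 18.2, 21.6, 24.1 and 20.7 CPM in fed controls, and the log2 fold change was 0.64 ± 0.20 (edgeR adjusted p = 0.0331). ARRDC4 had 30.8 and 32.4 CPM, against 20.4, 20.8, 23.5 and 19.7 CPM in fed controls, a log2 fold change of 0.58 ± 0.12 (edgeR adjusted p = 0.00137). ARRDC2 (log2 fold change 0.37 ± 0.10, edgeR adjusted p = 0.0116) and MLX (0.31 ± 0.09, edgeR adjusted p = 0.0197) were higher as well, so that 4 of 6 members were called where 11.5% of all genes were. Ribosomal protein genes took 5.57 to 5.76% of counts in ZNF655-depleted libraries, against 6.54 to 7.18% in the fed controls, and their part in the result was not tested.

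The ZNF655 result depended on the controls. Against the 2 controls labelled for ZMYND8, TXNIP differed by 0.59 ± 0.23 (edgeR adjusted p = 0.114) and ARRDC4 by 0.22 ± 0.14 (edgeR adjusted p = 0.339). Those controls had 20.4 and 23.4 CPM of TXNIP and 27.3 and 27.0 CPM of ARRDC4. In that comparison 0 of 6 members and 9.11% of all genes were called. With libraries left out 1 at a time, the ARRDC4 call against the second-set controls was kept in 6 of 6 refits, and the TXNIP call in 1 of 6, that without control 4a. The ARRDC2 call was kept in 4 of 6 refits, lost without either ZNF655 library, and the MLX call in 2 of 6, without control 3a or 3b.

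HDGF depletion raised ARRDC4, ARRDC2 and MLX but not TXNIP past the threshold. HDGF is a chromatin-binding growth factor-like protein. ARRDC4 had 27.0 and 29.4 CPM in HDGF-depleted cells, against 20.4, 20.8, 23.5 and 19.7 CPM in fed controls (log2 fold change 0.42 ± 0.12, edgeR adjusted p = 0.0376). ARRDC2 was higher by 0.34 ± 0.10 (edgeR adjusted p = 0.0430) and MLX by 0.45 ± 0.09 (edgeR adjusted p = 0.00208), and 3 of 6 members were called where 4.49% of all genes were. TXNIP had 24.3 and 24.2 CPM in HDGF-depleted cells, against 18.2 to 24.1 CPM in fed controls, with a log2 fold change of 0.20 (95% interval −0.22 to 0.61). The ARRDC4 call was kept in 1 of 6 refits that left out a library, without control 4a, and the ARRDC2 call in 1 of 6, without control 3a, while the MLX call was kept in 4 of 6.

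INTS13 depletion gave 1 called member, MLX. It had 55.6 and 58.5 CPM in INTS13-depleted cells, against 49.2, 48.1, 44.8 and 46.7 CPM in fed controls (log2 fold change 0.27 ± 0.09, edgeR adjusted p = 0.0399), where 12.8% of all genes were called. This call was kept in 1 of 6 refits, without control 3a, and was lost with DESeq2 size factors (edgeR adjusted p = 0.0589). PSMC3IP, a gene on the opposite strand that overlaps MLX, moved the other way, at 29.5 ± 1.22 CPM in INTS13-depleted cells (n = 2) and 37.9 ± 2.39 CPM in fed controls (n = 4; log2 fold change −0.36 ± 0.09, edgeR adjusted p = 0.0113). TXNIP had 30.9 and 30.4 CPM in INTS13-depleted cells, against 18.2, 21.6, 24.1 and 20.7 CPM in fed controls, with no overlap. Its log2 fold change of 0.54 ± 0.20 missed the threshold (edgeR adjusted p = 0.0761), also with the DESeq2 test (DESeq2 adjusted p = 0.0716). It was called in 0 of 6 refits that left out a library and in 4 of 6 other settings. Those were no filter, the replicate block in all libraries, and the second set alone without and with the block. They called 2064, 4324, 5624 and 5530 genes in that order, against 2459 in the main fit.

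In the first set no depletion changed TXNIP or ARRDC4 past the threshold. TSPYL2-depleted cells had 21.6 and 29.8 CPM of TXNIP, against 24.1, 43.2 and 53.0 CPM in controls 1a, 1b and 2 of that set. The log2 fold change was −0.65 ± 0.21 (edgeR adjusted p = 0.103). The lowest control, 1a, was the one with the high ribosomal protein share, and without it the TXNIP log2 fold change in TSPYL2-depleted cells was −0.91 (edgeR adjusted p = 0.00749). Replicate numbers paired the libraries of this set, and with the replicate number as a block the difference was −0.53 (edgeR adjusted p = 0.00706) in the fit of all libraries. In the first set alone it was not called, with the block (−0.52, edgeR adjusted p = 0.0983) or without it (edgeR adjusted p = 0.728). TXNIP in ZNF609-depleted cells, at 26.7 and 31.7 CPM, likewise passed the threshold when control 1a was left out (log2 fold change −0.72, edgeR adjusted p = 0.0250) and was at −0.46 ± 0.21 with it (edgeR adjusted p = 0.477). Control 1a is the only control that the descriptions number 1, so without it depleted libraries of both numbers were set against controls numbered 2. With the block the ZNF609 value was not called, at −0.34 in all libraries (edgeR adjusted p = 0.205) and −0.32 in the first set alone (edgeR adjusted p = 0.557).

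Within the first set TXNIP went with the replicate number. Libraries numbered 1 had less TXNIP than those numbered 2 in all 5 depleted groups, at 21.6 and 29.8 CPM with TSPYL2 depleted, 31.4 and 38.8 with ZEB1, 30.7 and 38.1 with ZNF608, 26.7 and 31.7 with ZNF609, and 28.1 and 40.5 with ZNF687. The libraries numbered 1 had the higher ribosomal protein share in each group, for example 16.8% and 9.23% with ZEB1 depleted. Whether that share bears on TXNIP was not tested. TSPYL2 depletion had 0 called members where 2.22% of all genes were called, with 3 members at an unadjusted p under 0.05 and 1 called by DESeq2, MLXIP. ZEB1 depletion had 1 member called, where 3.77% of all genes were, and ZNF608 depletion 1, where 2.76% were. ZNF609 depletion, with 0.571% of all genes called, and ZNF687 depletion, with 0.254%, had 0 called members by edgeR and by DESeq2, and 2 and 1 members at an unadjusted p under 0.05. With the replicate block in the fit of all libraries these 5 depletions called 3533, 2630, 1668, 430 and 225 genes in that order, against 428, 726, 532, 110 and 49 without it. With the block in the first set alone the counts were 50, 322, 333, 36 and 7, and in that set without the block 1, 28, 10, 1 and 1.

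MLX was the member called in the first set. It had 91.5 and 72.1 CPM in ZEB1-depleted cells, against 64.7, 60.0 and 58.7 CPM in controls (log2 fold change 0.42 ± 0.09, edgeR adjusted p = 0.0101). In ZNF608-depleted cells it had 81.3 and 74.4 CPM (log2 fold change 0.35 ± 0.09, edgeR adjusted p = 0.0354). These calls were kept in 3 of 5 refits that left out a library for ZEB1 and in 1 of 5 for ZNF608, without control 1a. The ZEB1 call was lost without control 2 and without ZEB1 library 1. That ZEB1 library had the 91.5 CPM of MLX and a ribosomal protein share of 16.8%. With the replicate block in all libraries both held (edgeR adjusted p = 0.00197 and 0.00927), and with the block in the first set alone neither did (edgeR adjusted p = 0.0743 and 0.136). The block in all libraries also brought MLXIP with TSPYL2 depleted (0.57, edgeR adjusted p = 0.00653) and ARRDC2 with ZNF608 depleted (0.34, edgeR adjusted p = 0.0279) past the threshold, and with the block in the first set alone neither was called (edgeR adjusted p = 0.0842 and 0.161). MLXIP had 33.5 and 55.8 CPM in TSPYL2-depleted cells, against 24.2, 34.9 and 32.4 CPM in controls, so that 1 of the depleted libraries lay within the range of the controls. Leaving out 1 library moved that MLXIP log2 fold change between 0.13 and 0.86. ZMYND8 depletion, with 0.747% of all genes called, had 0 called members by edgeR and by DESeq2 and 2 at an unadjusted p under 0.05, MLX (0.33 ± 0.10, edgeR adjusted p = 0.163) and ARRDC2 (0.24 ± 0.11, edgeR adjusted p = 0.474).

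Across the 9 depletions, MLX libraries did not overlap their controls in any: they were higher in 8 and lower with TSPYL2. Being higher without overlap in at least 8 of 9 depletions held for 0.296% of all genes tested (57 of 19275), a rule set after the values were seen. The depletions of a set share control libraries. MLX (ENSG00000108788.11, hg38 chromosome 17, 42567068 to 42573239, plus strand) overlaps PSMC3IP on the minus strand, and the strand setting of the counting was not given in the sources used here, so reads of the overlap cannot be assigned from these counts. PSMC3IP was not called in any depletion other than INTS13.

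ARRDC3 lay below the controls without overlap in all 5 depletions of the first set. It had 17.3 and 20.6 CPM with TSPYL2 depleted, 16.1 and 19.7 with ZEB1, 16.0 and 21.4 with ZNF608, 14.7 and 19.7 with ZNF609, and 18.1 and 22.3 with ZNF687, against 23.8, 25.9 and 27.9 CPM in controls. Being lower without overlap in all 5 held for 0.602% of genes tested (116), and the 5 comparisons share the same 3 controls. In each of the 5 depleted groups the library numbered 1 had less ARRDC3 than that numbered 2. Among the controls only 1a, the lowest, is numbered 1 in the descriptions, so controls and depleted groups differ in their mix of numbers. The log2 fold changes ran from −0.59 for ZNF609 to −0.36 for ZNF687, and edgeR called 0 of the 5 without a block among the filtered genes; with no filter on low counts it called ZEB1 (edgeR adjusted p = 0.0111) and ZNF609 (edgeR adjusted p = 0.0306). With the replicate block in the first set alone those of ZEB1 (−0.49, edgeR adjusted p = 0.0315) and ZNF608 (−0.44, edgeR adjusted p = 0.0487) were called. ARRDC3-AS1, an antisense RNA that overlaps ARRDC3, was counted at lower levels (4.50 ± 1.08 CPM in these controls) and was not called in any of the 5.

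**Figure D3:**
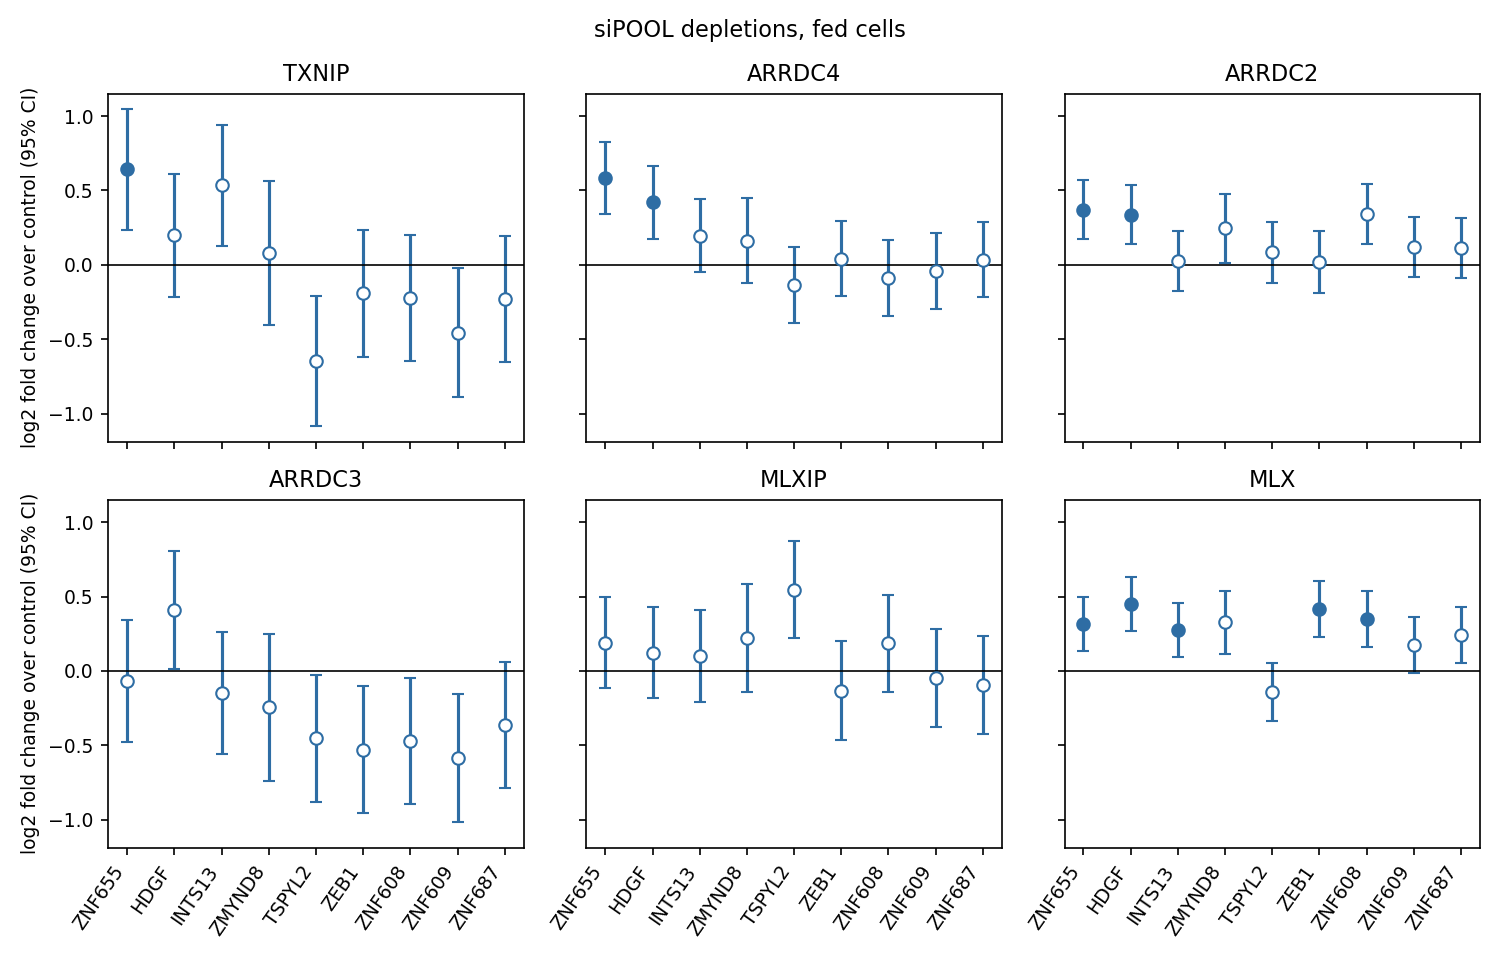
Log2 fold change over control of the 6 members in 9 siPOOL depletions of fed cells, with 95% intervals; filled points are called. ZNF655 depletion has 4 called members, MLX is called with 5 of the 9 pools, and TXNIP lies on both sides of 0 across the pools.

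Other genes around MondoA and TXNIP were read from 7 lists with 51 genes, of which 47 could be tested. In starved control cells 7 of the 47 rose and 5 fell, where 8.77% of all genes were called higher and 8.05% lower. Median log2 fold changes of the lists ran from −0.08 to 0.22, against 0.01 for all genes. Of 13 reported MondoA or ChREBP targets, 3 rose and 3 fell. KLF10, a transcriptional repressor, rose by 0.39 ± 0.11 (edgeR adjusted p = 0.0149), and LDHA, a lactate dehydrogenase subunit, fell by 0.33 ± 0.09 (log2 fold change −0.33; edgeR adjusted p = 0.0102). FGF21, a secreted hormone, was also called, but on 4, 3, 0 and 1 counts in starved controls and 0 counts in each of 4 fed controls. With the fed group set at a floor of 3 counts the ratio was 2.96-fold, a value that depends on that floor and on few counts.

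The MLX and MAX network, the transcription factors that share the MLX or MAX partner, had 1 of 10 members called, MNT, a repressor that rose by 0.62 ± 0.15 (edgeR adjusted p = 0.00532). Of 5 thioredoxins and reductases, TXNRD1, the reductase of cytosolic thioredoxin, which is the partner of TXNIP, fell by 0.42 ± 0.06 (edgeR adjusted p = 3.33e-05). Of 5 arrestin-binding ubiquitin ligases, WWP1 fell by 0.38 ± 0.11 (edgeR adjusted p = 0.0208). Of 5 other binding partners, 1 rose, DDIT4, an inhibitor of mTOR signalling (0.66 ± 0.17, edgeR adjusted p = 0.00709). SLC2A1 and SLC2A4, the glucose transporters of that list, were not called. PRKAB1 was the 1 of 6 AMP-activated kinase subunits called (0.25 ± 0.07, edgeR adjusted p = 0.0153) and ARRB2 the 1 of 3 other arrestins (0.21 ± 0.06, edgeR adjusted p = 0.0199).

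**Figure D4:**
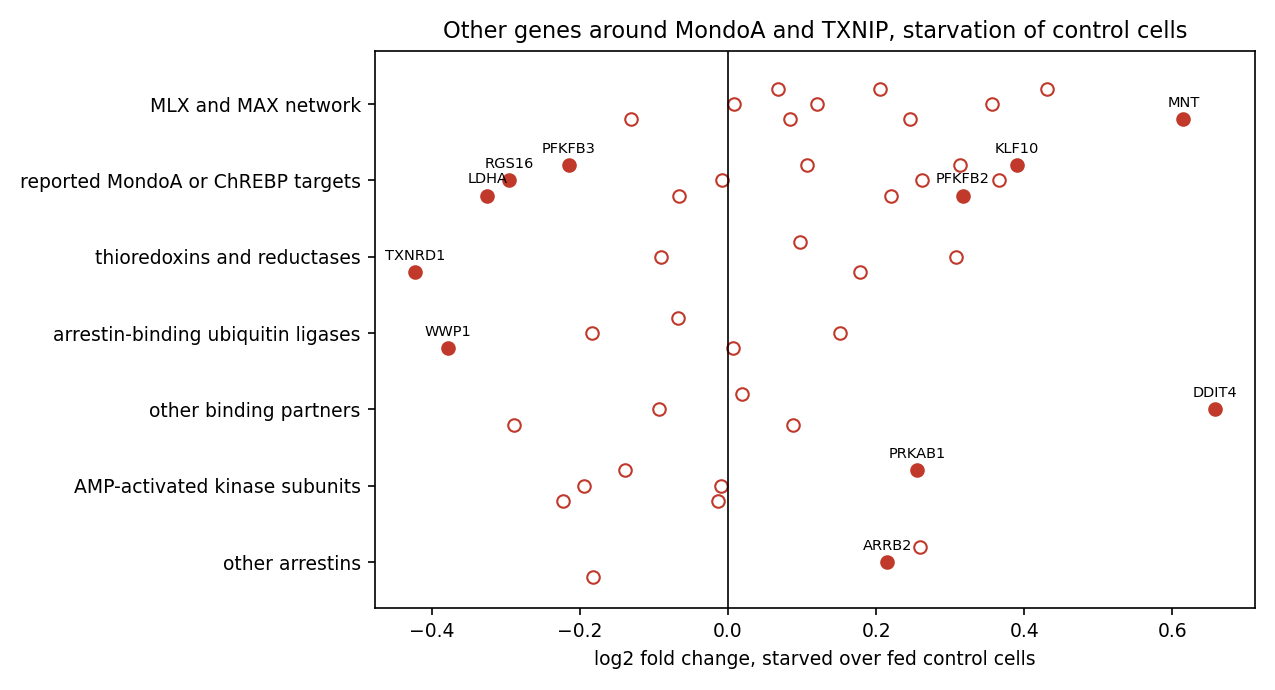
Log2 fold change, starved over fed control cells, of 46 tested genes in 7 lists, without FGF21; filled and named points are called. Genes of the reported-target list lie on both sides of 0.

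On starvation of the depleted cells, with 2 libraries a group, edgeR called 0 of the 47 in INTS13-depleted cells and 1 in HDGF-depleted cells, TXNRD1 (log2 fold change −0.34 ± 0.09, edgeR adjusted p = 0.0295). Of all genes, 1.32% and 3.54% were called in that order. In fed cells the counts were 8 of 47 for ZNF655 (2 higher, 6 lower), 6 for INTS13 (4 higher, 2 lower) and 6 for HDGF (1 higher, 5 lower), where 11.5%, 12.8% and 4.49% of all genes were called in that order. With ZNF655 depleted, MLXIPL, which encodes the MondoA relative ChREBP, rose by 0.58 ± 0.17 (edgeR adjusted p = 0.0230) and LDHA fell (log2 fold change −0.47 ± 0.11, edgeR adjusted p = 0.00517). With INTS13 depleted, KLF11, a relative of KLF10, rose by 0.57 ± 0.11 (edgeR adjusted p = 0.000834) and LDHA fell (log2 fold change −0.39 ± 0.11, edgeR adjusted p = 0.0154). With HDGF depleted, RGS16, a regulator of G protein signalling, fell (log2 fold change −0.74 ± 0.11, edgeR adjusted p = 9.28e-05). Of the other reported MondoA or ChREBP targets, PFKFB3 fell (log2 fold change −0.41 ± 0.09, edgeR adjusted p = 0.00821) and KLF11 rose (0.40 ± 0.11, edgeR adjusted p = 0.0376). TSPYL2 depletion had 3 of the 47 called, all lower, ZEB1 depletion 2, both lower, and ZNF608 depletion 2, 1 in each direction. Of all genes, 2.22%, 3.77% and 2.76% were called in that order. ZNF609, ZNF687 and ZMYND8 depletion had 0 of the 47, where 0.571%, 0.254% and 0.747% of all genes were called. In starved cells INTS13 depletion called 2, where 3.86% of all genes were called, and HDGF depletion 0, where 0.659% were.

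Over the 35 libraries, each taken relative to the fed controls of its set, ARRDC4 was the gene most like TXNIP of 11514 others (Pearson r 0.953 across libraries), and TXNIP the most like ARRDC4. PAPSS2, which makes the sulfate donor of sulfotransferases, came next for both (r 0.899 for TXNIP and 0.917 for ARRDC4), followed by LPCAT3, a phospholipid acyltransferase (0.891 and 0.906 in that order). ADAMTS1, a secreted protease, and SLC39A7, a zinc transporter, completed the 5 most like TXNIP, and SEC24D, a coat protein of secretory vesicles, and ADAMTS1 the 5 most like ARRDC4. MLXIP ranked 2567 for TXNIP, ARRDC3 4468, MLX 4707 and ARRDC2 5882. Starved and fed libraries form separate clusters in these values and share their controls, so the correlations are a description. Among the 27 fed libraries ARRDC4 ranked 5 for TXNIP (r 0.816) and PAPSS2 12 (r 0.801), while ADAMTS1 ranked 620 (r 0.566), LPCAT3 1242 (r 0.468) and SLC39A7 2785 (r 0.295). For ARRDC4 in the fed libraries TXNIP ranked 9, PAPSS2 17, SEC24D 214, LPCAT3 436 and ADAMTS1 545. On levels not taken relative to controls, r between TXNIP and ARRDC4 was 0.425 over the 8 starved libraries, 0.819 over 13 of the first set and 0.747 over 10 fed libraries of the second set.

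**Figure D5:**
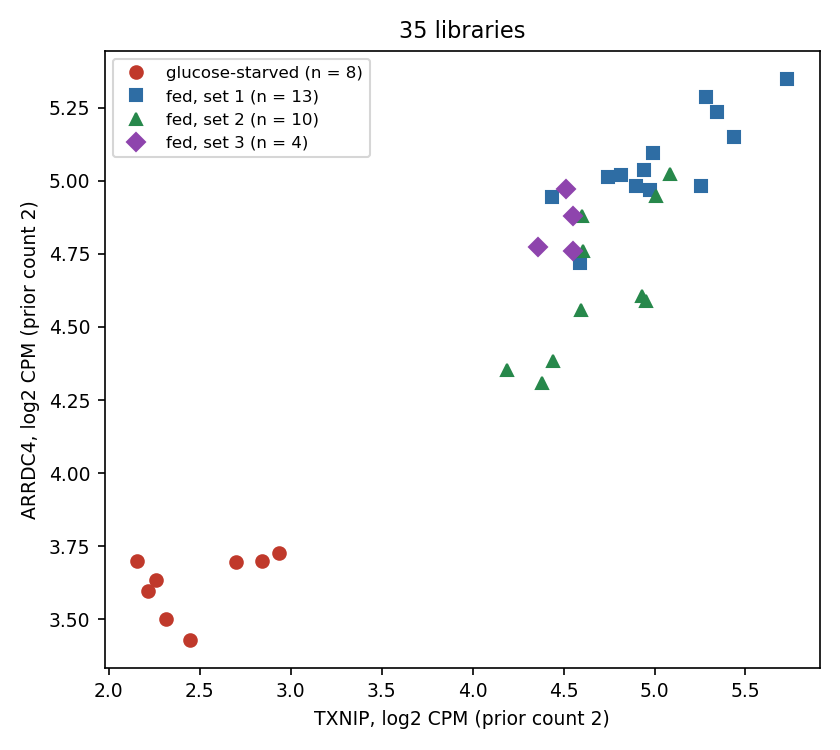
ARRDC4 against TXNIP, both as log2 CPM with a prior count of 2, in 35 libraries. The 8 starved libraries form a cluster at low levels of both genes, apart from 27 fed libraries.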

How the data were processed

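Raw read counts per gene, deposited by the authors as 1 table taken before duplicate removal, were analysed for 35 libraries. Total RNA libraries were stranded and ribosomal RNA was depleted, per the labels' protocols; reads were processed with FastQC, cutadapt and STAR on hg38, per the submitters' processing notes, with no versions. The sources used here give neither a counting tool nor an annotation release. Exon lengths in bases came from the deposited table.

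Genes were filtered with filterByExpr by group (19275 of 60665 kept) and scaled by TMM, and 1 edgeR quasi-likelihood fit of 15 group means (edgeR 4.0.16, R 4.3.3) gave every comparison as a contrast, tested two-sided with Benjamini-Hochberg adjustment. The fit had 20 residual degrees of freedom and was tested on simulated data. Those data were drawn from the mean profile of the fed controls of the second set, with no effect of set or replicate number. They cannot show how the fit deals with such effects. Members and gene lists were chosen with earlier results of these data known. The members are named in every comparison, listed genes by the largest called changes, and likeness by Pearson correlation of log2 CPM with a prior count of 2 among genes averaging at least 2.

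In the first set the difference between numbers 1 and 2 correlated above 0.1 in 15 of 15 pairs of groups (median r 0.742), so numbers paired the samples; titles and descriptions number its controls differently, and blocks used the descriptions. In the second set 6 of 21 pairs passed and numbers did not pair the samples. ZNF655, whose set no label gives, was counted in the second set there, in the fits of that set alone and in the likeness values. Alternatives were DESeq2 (1.42.0) size factors and Wald test, no filter, a replicate block, each set alone, other controls for ZNF655 and leaving out each library. Starved ZMYND8 libraries were not analysed here. A listed gene is not reported here.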

Additional observations from a re-analysis of the deposited data

Results flagged for a closer look

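ARRDC2 lay on opposite sides of its fed level in the 2 depleted backgrounds: both starved libraries lay above the fed mean in INTS13-depleted cells (log2 fold change 0.17) and below it in HDGF-depleted cells (log2 fold change −0.078). Neither was called, and the difference between the backgrounds was not tested. In the 12 sets of 4 libraries checked for a sample far from the others (6 members in starved and in fed controls of the second set), 0 stood apart.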

How the results depend on the processing

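Over 1176 recomputed log2 fold changes of 96 values, 1057 kept their direction and their side of the threshold, 50 lost a call, 27 gained one and 42 changed sign, of which 0 had been called. A missing adjusted p was counted as no call. The TXNIP starvation calls were kept under every setting in all 3 backgrounds, and the ARRDC4 ones in all except that without starved INTS13 replicate 4. Log2 fold changes that changed call or sign under a planned setting were as follows, and the cause was not tested. With no filter, TXNIP with TSPYL2 depleted was at −0.63 and with INTS13 at 0.53, both gaining the call, and ARRDC4 with HDGF at 0.41, losing it; MLXIP with TSPYL2 (0.56) and ARRDC3 with ZEB1 (−0.54) and ZNF609 (−0.58) gained it, and MLX with ZNF608 (0.35), INTS13 (0.27) and ZNF655 (0.31) and ARRDC2 with HDGF (0.33) and ZNF655 (0.36) lost it. With the replicate block in all libraries, TXNIP was at −0.53 with TSPYL2 and 0.54 with INTS13, both gaining the call, and ARRDC3 in starved INTS13-depleted cells at −0.0041, while MLXIP with TSPYL2 (0.57), ARRDC2 with ZNF608 (0.34) and MLX with ZMYND8 (0.33) gained the call. With the second set alone TXNIP with INTS13 was at 0.54 and in starved cells at 0.46, and with the replicate block added at 0.54 and 0.46, all gaining the call. In each set alone, with the block and without it, MLX with ZMYND8 (0.31 in both) and on starvation of HDGF-depleted cells (−0.23 in both) gained the call, and MLX with ZEB1 (0.39 and 0.41) and ZNF608 (0.32 and 0.34) lost it; with the block ARRDC3 with ZEB1 (−0.49) and ZNF608 (−0.44) and MLXIP with ZMYND8 (0.20) gained it. The ZMYND8 set alone had 2 libraries a group. Its fits without and with the block called 1560 and 2357 genes, against 144 in the fit of all libraries. In the first set alone with the replicate block, ARRDC4 and MLXIP with ZNF609 were at 0.011 and 0.0092. Against the controls labelled for ZMYND8, ZNF655 depletion gave 0.59 for TXNIP, 0.22 for ARRDC4, 0.13 for ARRDC2 and 0.20 for MLX, all losing the call, and 0.48 for ARRDC3. ARRDC3 in starved INTS13-depleted cells, at 0.00 as reported, was at −2.66e-05 with DESeq2 size factors and −0.000392 with the DESeq2 test. MLX with INTS13 lost the call with DESeq2 size factors (0.26), and MLXIP with TSPYL2 (0.54) and ARRDC2 with ZNF608 (0.34) gained it with the DESeq2 test. The lowest and highest log2 fold changes when each library was left out in turn follow, for values of which at least 1 changed. In TSPYL2 depletion, leaving out 1 library gave TXNIP −0.91 to −0.39, ARRDC4 −0.29 to 0.013, MLXIP 0.13 to 0.86. In ZEB1 depletion, leaving out 1 library gave TXNIP −0.45 to 0.064, ARRDC4 −0.13 to 0.19, ARRDC2 −0.045 to 0.076, ARRDC3 −0.69 to −0.40, MLX 0.24 to 0.58. In ZNF608 depletion, leaving out 1 library gave TXNIP −0.49 to 0.033, ARRDC4 −0.25 to 0.059, MLX 0.28 to 0.41. In ZNF609 depletion, leaving out 1 library gave TXNIP −0.72 to −0.20, ARRDC4 −0.20 to 0.10, MLXIP −0.19 to 0.059. In ZNF687 depletion, leaving out 1 library gave TXNIP −0.51 to 0.025, ARRDC4 −0.12 to 0.18, MLXIP −0.23 to 0.014. In INTS13 depletion, leaving out 1 library gave ARRDC2 −0.048 to 0.055, ARRDC3 −0.35 to 0.015, MLX 0.22 to 0.29. In HDGF depletion, leaving out 1 library gave ARRDC4 0.34 to 0.48, ARRDC2 0.31 to 0.37, MLX 0.43 to 0.47. In ZNF655 depletion, leaving out 1 library gave TXNIP 0.57 to 0.71, ARRDC3 −0.61 to 0.27, ARRDC2 0.28 to 0.40, MLX 0.26 to 0.33. In ZMYND8 depletion, leaving out 1 library gave TXNIP −0.036 to 0.15. In glucose starvation of control cells, leaving out 1 library gave MLXIP −0.10 to 0.049. In glucose starvation of INTS13-depleted cells, leaving out 1 library gave ARRDC4 −0.91 to −0.87, ARRDC3 −0.23 to 0.12, MLX −0.064 to 0.0080. In INTS13 depletion in starved cells, leaving out 1 library gave ARRDC3 −0.036 to 0.043. In HDGF depletion in starved cells, leaving out 1 library gave MLXIP −0.13 to 0.025. In the interaction of INTS13 depletion with starvation, leaving out 1 library gave TXNIP −0.15 to 0.033, ARRDC4 −0.10 to 0.0070, ARRDC3 −0.014 to 0.35. Depth limits TXNIP in starved libraries most, at 78 to 191 counts. Counts of genes called over all genes moved by more than 1.5 times in some settings: TSPYL2 depletion had 428 (range 1 to 3533), ZEB1 depletion had 726 (range 28 to 7292), ZNF608 depletion had 532 (range 10 to 1668), ZNF609 depletion had 110 (range 1 to 430), ZNF687 depletion had 49 (range 1 to 225), INTS13 depletion had 2459 (range 868 to 5624), HDGF depletion had 866 (range 264 to 2981), ZNF655 depletion had 2208 (range 721 to 5513), ZMYND8 depletion had 144 (range 17 to 2357), glucose starvation of control cells had 3243 (range 2408 to 6479), glucose starvation of INTS13-depleted cells had 255 (range 8 to 2371), glucose starvation of HDGF-depleted cells had 683 (range 109 to 3170), INTS13 depletion in starved cells had 744 (range 153 to 3047), HDGF depletion in starved cells had 127 (range 25 to 1460), interaction of INTS13 depletion with starvation had 3 (range 0 to 307), interaction of HDGF depletion with starvation had 0 (range 0 to 41).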

Other observations

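The 23 promoter windows with 2 CACGNG half-sites 5 bases apart belong to 23 RefSeq symbols, of which 16 could be tested. On starvation of control cells 2 of the 16 fell, TXNIP and GFPT1, the enzyme that opens the hexosamine pathway (log2 fold change −0.54 ± 0.10, edgeR adjusted p = 0.000365). MYL5, a myosin light chain, rose by 0.71 ± 0.11 (edgeR adjusted p = 4.37e-05), and 13 were not called. Of all genes tested, 8.05% were called lower and 8.77% higher. The median log2 fold change of the 16 was 0.02, against 0.01 for all genes. These genes were taken by sequence after the values of the members were known.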
